A study of Mus musculus with 15 samples.

Results

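The homing receptors described here are 9 genes, *Ccr10*, *Ccr9*, *Ccr7*, *Ccr6*, *Cxcr3*, *Cxcr4*, *Cxcr5*, *S1pr1*, and *Gpr183*, taken by gene symbol from the 21669 genes with a symbol in the deposited table. They were chosen as chemokine and lipid receptors that place B cells and plasmablasts in tissue by a rule on symbols and roles, with earlier results of these data known. The libraries came from splenic B cells of female C57BL/6J mice, all of them wild type. Naive B cells (nB) were taken as CD43- cells without culture. Activated cells (actB), gated as B220+GL7+CD138-, and plasmablasts (Pb), gated as CD138+, were sorted after 3 days in culture with LPS, Il2, and Il5, together with DMSO, the vehicle, or 2 μM of GSK343, an inhibitor of the histone methyltransferase EZH2. For Pb with GSK343 alone, the labels give Il6 where those of the other cultures give Il5, so that in Pb the drug and this cytokine cannot be told apart if the labels hold. The paper names IL5 for the cultures with the drug and without it, and the conflict was not resolved. The comparisons ask how each receptor transcript differed between the cell stages and with the inhibitor in actB and in Pb.

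Chemokine receptors and the receptors S1PR1 and GPR183 couple to inhibitory G proteins and steer a lymphocyte along gradients of their ligands. In a resting B cell, CXCR5 reads CXCL13 of the follicle, CCR7 reads CCL19 and CCL21 of the T cell zone, GPR183 (EBI2) reads oxysterols at the follicle's border, and S1PR1 reads the sphingosine-1-phosphate (S1P) of blood and lymph and lets the cell leave the organ. Plasma cells turn to other signals: CXCR4 reads CXCL12 in the bone marrow, CCR9 reads CCL25 of the small intestine, and CCR10 reads CCL27 and CCL28 of skin and mucosal epithelia.

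Promoter sequences are shown for *Ccr9*, which was called higher with GSK343 in both cell types, and for *Cxcr4*, the member with the highest level in Pb. Each line gives the 250 bases before the gene's start, 5′ to 3′ on the gene's strand, from RefSeq on GRCm38.p6, with every CG in capitals. That of *Ccr9* lies at chr9:123766961-123767210 on the plus strand and that of *Cxcr4* at chr1:128592300-128592549 on the minus strand.
Ccr9: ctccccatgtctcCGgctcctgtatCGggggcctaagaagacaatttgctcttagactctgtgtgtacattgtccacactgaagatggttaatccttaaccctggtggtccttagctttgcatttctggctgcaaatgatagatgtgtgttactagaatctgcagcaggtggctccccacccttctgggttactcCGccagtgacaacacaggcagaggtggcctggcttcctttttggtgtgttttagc
Cxcr4: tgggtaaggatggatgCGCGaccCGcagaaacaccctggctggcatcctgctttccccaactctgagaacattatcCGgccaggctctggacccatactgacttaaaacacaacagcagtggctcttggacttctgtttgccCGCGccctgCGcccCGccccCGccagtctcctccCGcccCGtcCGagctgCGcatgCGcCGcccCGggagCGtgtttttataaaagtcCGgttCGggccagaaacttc
The *Ccr9* window holds 3 CGs and the *Cxcr4* window 19. Among the 32851 promoter windows of the table the median was 6, and 19.7% held at least as many as that of *Cxcr4*. Of the 9 members 5 matched an entry. The windows of *Cxcr3* and *Gpr183* held 3 and 2 CGs, and those of the 2 *Ccr6* starts held 1 and 7. The letters TATAAA, searched on both strands, were found in the *Cxcr4* window and in no other member's, and in 12.4% of all windows. These are descriptions of sequence and not of binding.

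Between 19421830 and 26307413 reads were counted per library, in 5 groups of 3 libraries. The columns of nB replicates 1 and 2 held the same library and were counted as 1 sample, so that nB has n = 2 and each cultured group n = 3. Levels are given as RPKM, reads per 1000000 counted reads and per kilobase of the deposited gene length, which lets genes be compared as far as those lengths hold. All 9 members were among the 11299 genes that passed the filter of at least 1 RPKM in at least 3 of the 15 columns. A difference was called where limma's two-sided test on log2(RPKM + 0.25) gave a Benjamini-Hochberg adjusted p under 0.05 over all genes tested. Log2 fold changes, with their standard error (SE), are given on that scale, which understates the change of low genes such as *Ccr10* and *Ccr9*. The lower the level, the more it understates, so it can enlarge a difference between effects, as for *Ccr10* between Pb and actB. In bulk libraries, fewer cells of a type and less RNA per cell cannot be told apart.

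The groups were checked against markers. The 6 plasmablast markers summed to between 3083 and 3417 RPKM in Pb and to at most 669 RPKM in actB, and all 6 B cell markers were detected in every group. The 12 myeloid and dendritic cell markers summed to between 241 and 295 RPKM in nB and to at most 8.59 RPKM in Pb. The 12 T and NK cell markers summed to 57.5 and 60.7 RPKM in the 2 nB libraries. In the cultured libraries they summed to between 8.41 and 11.2 RPKM. Most of that came from *Cd247*, at 4.13 to 7.93 RPKM per cultured library, and *Lck*, at 1.16 to 5.35 RPKM. *Cd3e*, *Klrb1c*, and *Ncr1* had at most 3 reads in every cultured library. Others had more, with up to 16 reads of *Cd5* and 14 of *Cd4* in Pb with GSK343. *Cd5* was called higher in Pb with GSK343 (log2 fold change 0.73, adjusted p = 0.0181 from limma), at means of 0.063 RPKM with DMSO and 0.268 with GSK343. No other tested T and NK cell marker was called with GSK343 in either cell type. The part of such other cells in the receptor levels of nB and Pb was not tested. In actB the myeloid sum was 33.7 to 68.9 RPKM, with *S100a8*, *S100a9*, *Mpo*, *Siglech*, and *Clec9a* at no more than 3 reads in any actB library. Most of this sum came from *Flt3*, whose mean in actB was 47.2 RPKM with DMSO and 28.02 RPKM with GSK343 (log2 fold change -0.78, adjusted p = 0.0585 from limma). Of the 12 markers, *Itgam*, *Adgre1*, and *Itgax* were called higher in actB with GSK343. *Itgam* had means of 4.27 and 9.95 RPKM (log2 fold change 1.14, adjusted p = 0.00376), and the means of *Adgre1* and *Itgax* were below 1 RPKM in both groups. The part of such other cells in the receptor levels of actB was not tested.

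From nB to actB with DMSO, most of the receptors of resting B cells fell. Of the 9 members, 6 were called lower (*Ccr9*, *Ccr7*, *Cxcr4*, *Cxcr5*, *S1pr1*, and *Gpr183*), 2 were called higher (*Ccr10* and *Cxcr3*), and *Ccr6* did not pass. Of all genes tested, 36.3% were called lower and 40.9% higher in this comparison. From actB to Pb with DMSO, 5 members were called lower (*Ccr7*, *Ccr6*, *Cxcr3*, *Cxcr5*, and *Gpr183*), and 2 were called higher (*Ccr10* and *Cxcr4*), while *Ccr9* and *S1pr1* did not pass. Over all genes, 42.4% were called lower and 27.3% higher, with a median log2 fold change of -0.12, which was -0.015 when each library was scaled to its median. The summed level of the 9 members was 840 and 1023 RPKM in the nB libraries, 244 to 330 in actB with DMSO, and 170 to 180 in Pb with DMSO.

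**Figure D1:**
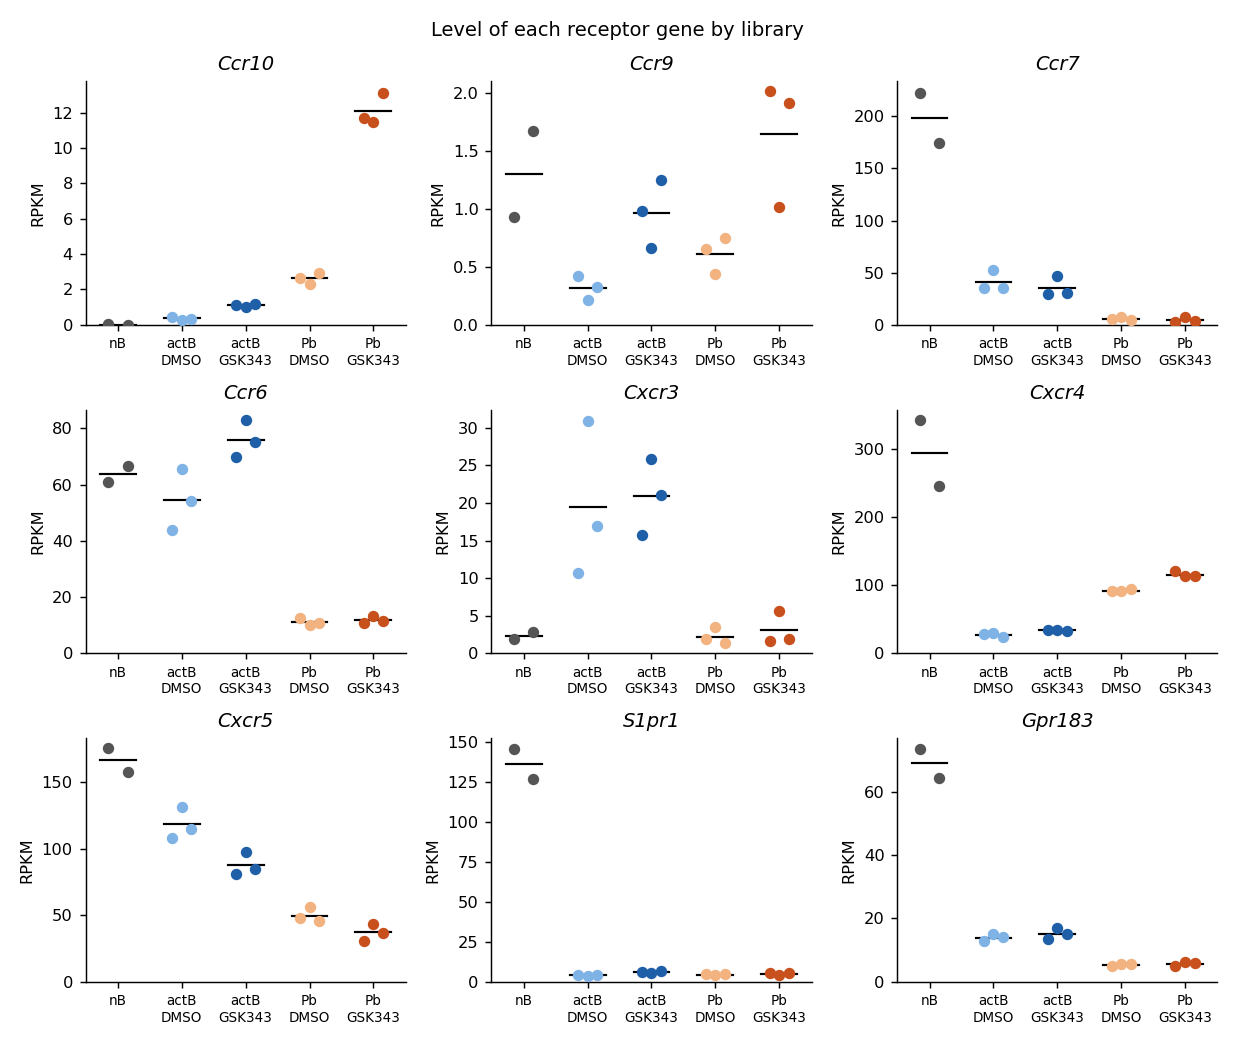
RPKM of each receptor gene (vertical axis, linear, from 0) in every library of the 5 groups, with the group mean as a line, where n is 2 for nB and 3 for the other groups. *Ccr10* rises from group to group up to between 11.5 and 13.1 RPKM in Pb with GSK343, while *S1pr1* and *Gpr183* are highest in nB.

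The stage comparisons share the libraries of actB with DMSO, so their values are not independent of each other. Directly between Pb with DMSO and nB, 7 members were called lower, *Ccr10* was called higher, and *Cxcr3* did not pass (log2 fold change -0.12, adjusted p = 0.834 from limma). Of all genes, 41.1% were called lower and 39.5% higher in this comparison. At the low end of the 9 stood *Ccr7*, at a log2 fold change of -5.05 (SE 0.37), followed by *S1pr1* at -4.87 (SE 0.12), and at the high end stood *Ccr10*. The call of *Ccr9* in this comparison (log2 fold change -0.82, adjusted p = 0.0242) was lost without nB replicate 3 (adjusted p = 0.260), without Pb DMSO replicate 2 (0.0802), and with quantile normalization (0.0869), the highest of the alternatives that leave out no library.

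**Figure D2:**
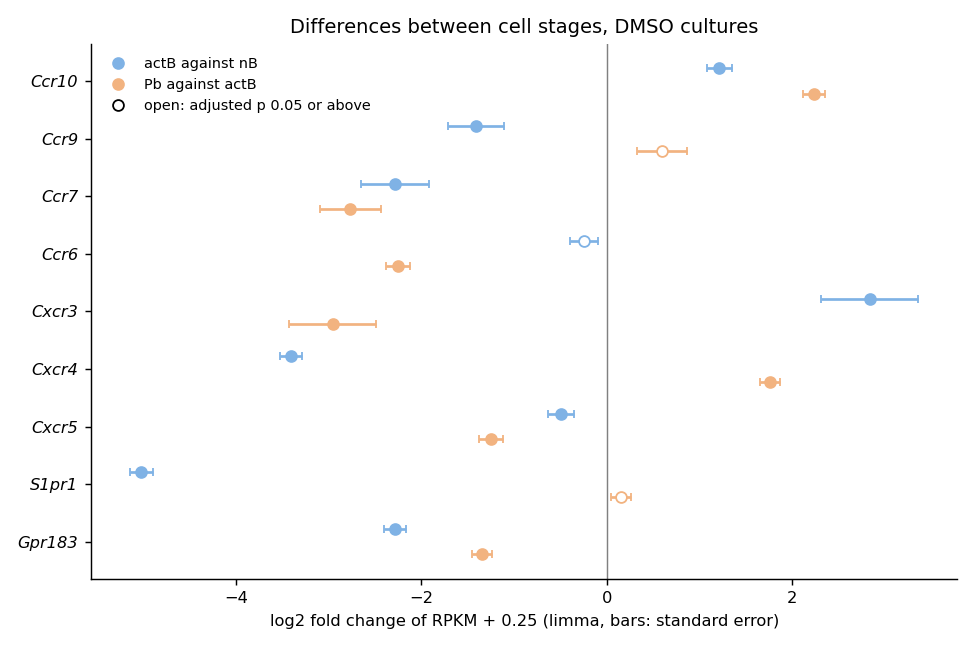
Log2 fold change of RPKM + 0.25 between the cell stages of the DMSO cultures for each receptor gene, with the SE from limma as a bar. Filled points were called, and *Cxcr4* lies at -3.41 for actB against nB and at 1.76 for Pb against actB.

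With GSK343, *Ccr10* and *Ccr9*, receptors of skin and mucosa, were called higher in both cell types. In actB, 4 of 9 members were called higher (*Ccr10*, *Ccr9*, *Ccr6*, and *S1pr1*) and none was called lower, where 8.2% of all genes tested were called higher and 2.16% lower. In Pb, *Ccr10* and *Ccr9* were called higher and *Cxcr5* was called lower, where 7.9% of all genes were called higher and 5% lower. All 3 GSK343 libraries lay above all 3 DMSO libraries for 5 members in actB and 3 in Pb, and below them for 1 member, *Cxcr5*, in each. Of all genes tested, 18.3% lay above in this way and 7.52% below in actB, and 18.8% above and 15.3% below in Pb. The replicate number as a block gave 6 called members in actB, *Cxcr5* as lower among them, where it called 19.9% of all genes in either direction, and 5 in Pb, where it called 23.2%. With edgeR and TMM factors 5 members were called in actB and 2 in Pb, beside 10.2% and 12.6% of all genes. The split of all genes in actB, 926 called higher and 244 lower, was 700 and 369 with each library scaled to its median.

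**Figure D3:**
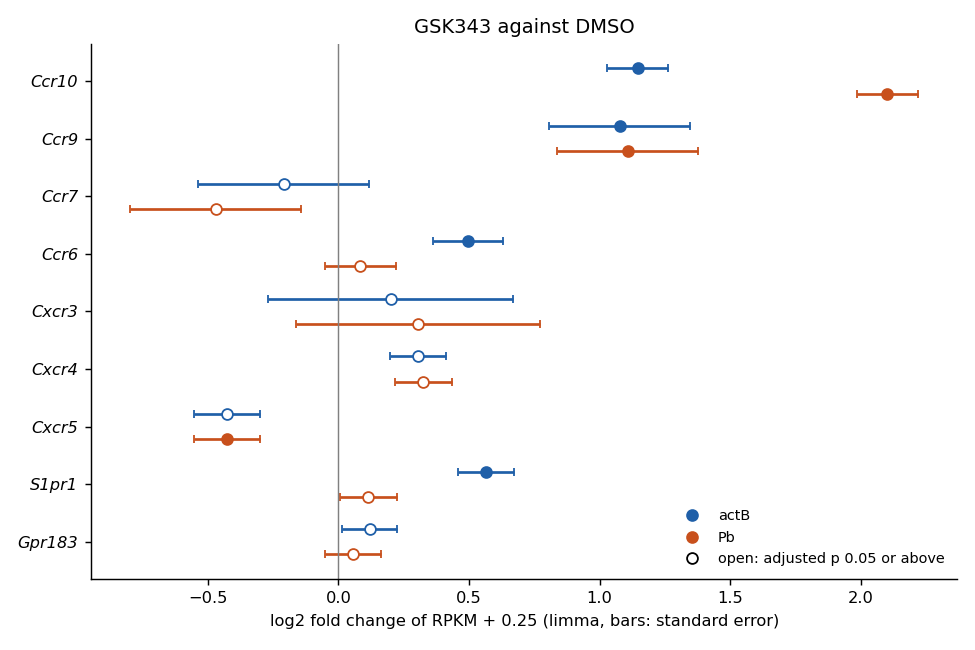
Log2 fold change of RPKM + 0.25 with GSK343 against DMSO in actB (blue) and Pb (orange) for each receptor gene, with the SE from limma as a bar and filled points where the difference was called. *Ccr10* lies at 1.15 in actB and at 2.10 in Pb, and *Cxcr5* lies at -0.43 in both.

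The difference between the drug's effects in Pb and in actB was tested as an interaction term. It was called for *Ccr10* alone among the 9 members, by limma, where 0.248% of all genes tested were called. At an unadjusted p under 0.05 there were 2 members, *S1pr1* being the other, and edgeR with TMM factors called 0. The log2 difference of *S1pr1* was -0.45 (SE 0.15, adjusted p = 0.346) and that of *Ccr6* was -0.41 (SE 0.19, adjusted p = 0.559), so that their calls in actB, without calls in Pb, are not shown to differ from Pb.

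*Ccr10* (Entrez 12777, chromosome 11 of mm9 from 101034311 to 101036757, minus strand) encodes the receptor for CCL27 and CCL28. It had 1 and 0 reads in the nB libraries, where 3 reads would be 0.0755 and 0.0760 RPKM. Its level was 0.466, 0.289, and 0.334 RPKM in actB replicates 1 to 3 with DMSO and 1.12, 1.01, and 1.16 RPKM with GSK343, from 12 to 51 reads. In Pb it was 2.65, 2.33, and 2.93 RPKM with DMSO and 11.7, 11.5, and 13.1 RPKM with GSK343, from 82 to 461 reads. The 5 groups stood in this order with no overlap between any of them. The means were 0.363 ± 0.092 (SD, n = 3) and 1.10 ± 0.077 in actB, and 2.63 ± 0.301 and 12.1 ± 0.898 in Pb.

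With GSK343, the level of *Ccr10* was 3.03 times higher in actB (log2 fold change 1.15, SE 0.12, adjusted p = 0.00024 from limma) and 4.59 times higher in Pb (log2 fold change 2.10, adjusted p = 2.63e-06). Of the 6 plasmablast markers 2 were also called higher in actB with GSK343, *Jchain* (log2 fold change 0.37, adjusted p = 0.0277) and *Sdc1* (0.41, adjusted p = 0.0422), and their summed level was 485 to 522 RPKM with DMSO and 550 to 669 RPKM with GSK343. In Pb 1 of the 6 was called higher with GSK343, *Sdc1* (0.89, adjusted p = 0.000575), and 1 lower. The part of plasmablast transcripts in the *Ccr10* result was not tested. The ratio within replicate numbers 1 to 3 was 2.41, 3.50, and 3.46 in actB and 4.41, 4.93, and 4.49 in Pb. Every ratio in Pb thus exceeded every ratio in actB, and the share of all genes for which this holds was not computed. The test of the difference between these effects gave a log2 difference of 0.96 (SE 0.17, adjusted p = 0.0427). The difference and its call depended on the pseudocount, which shrinks the effect at the lower actB level more than that in Pb. With 0.05 the log2 difference was 0.69 (adjusted p = 0.426 from limma), and with 1 the adjusted p was 0.00044. With edgeR on whole reads the log2 difference was 0.63 (adjusted p = 0.539, in a range of 0.00044 to 0.546 over such alternatives). The call was also lost on leaving out any 1 of 12 of the 14 libraries (adjusted p up to 0.149, without Pb GSK343 replicate 3). It held without actB DMSO replicate 2 or Pb GSK343 replicate 2.

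Between Pb and actB with DMSO, *Ccr10* was 7.26 times higher in Pb (log2 fold change 2.24, SE 0.12, adjusted p = 5.15e-09). Against nB, whose libraries hold 1 read together, the reads of actB with DMSO gave a ratio of 28.7, with an exact 95% interval of 4.89 to 1158 that covers counting error only. For Pb with DMSO the ratio was 209, with an interval of 37.2 to 8282. All calls of *Ccr10* between stages and for the drug within a cell type were kept under every alternative tried.

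A neighbour of *Ccr10* was read beside it. *Cntnap1*, the gene of a neuronal adhesion protein, overlaps the *Ccr10* span on the other strand, shares 0 exon bases with it in the annotation, and was chosen after values were seen. *Cntnap1* had 0.162 and 0.122 RPKM in nB and 2.84 ± 0.497 RPKM in actB with DMSO, and its level in Pb was 3.24 ± 0.679 RPKM with DMSO and 7.83 ± 0.546 with GSK343. With the drug its log2 fold change was 1.23 (SE 0.15, adjusted p = 0.000393) in Pb and 0.47 (adjusted p = 0.0637) in actB. Between Pb and actB with DMSO, where *Ccr10* was called higher, *Cntnap1* was not called (log2 fold change 0.17, adjusted p = 0.315). Whether the counting used strand is not stated, and a part of reads from *Cntnap1* in the values of *Ccr10* was not tested.

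*Ccr9* (Entrez 12769, chromosome 9 from 123587557 to 123691089, plus strand), whose protein guides cells to CCL25 of the small intestine, was the other member called higher with GSK343 in both cell types. Its RPKM was low throughout, at 0.929 and 1.67 in nB. Its level in actB was 0.422, 0.215, and 0.323 RPKM with DMSO and 0.980, 0.665, and 1.25 RPKM with GSK343. In Pb it was 0.650, 0.439, and 0.749 RPKM with DMSO and 2.01, 1.02, and 1.91 RPKM with GSK343, from 88 to 451 reads. GSK343 libraries lay above all DMSO libraries in each cell type, and the order of the means ran from Pb with GSK343 through nB, actB with GSK343, and Pb with DMSO to actB with DMSO. In this order only the last step, from Pb to actB with DMSO, had no overlap.

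With GSK343, *Ccr9* had a log2 fold change of 1.08 (SE 0.27, adjusted p = 0.0256 from limma) in actB and 1.11 (SE 0.27, adjusted p = 0.0190) in Pb. The log2 difference of these effects was 0.030 (SE 0.38, adjusted p = 0.996). The call in actB was lost without GSK343 replicate 1 (adjusted p = 0.0736), GSK343 replicate 3 (0.104), DMSO replicate 2 (0.0624), or DMSO replicate 3 (0.0699). It was also lost with a pseudocount of 1, quantile normalization, and the compared groups alone (up to 0.0953). The call in Pb was lost without DMSO replicate 1 (0.0513), DMSO replicate 2 (0.0677), GSK343 replicate 1 (0.0806), or GSK343 replicate 3 (0.0794).

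From nB to actB with DMSO, *Ccr9* fell by 1.42 on the log2 scale (SE 0.30, adjusted p = 0.000897). *Siglech*, a marker of plasmacytoid dendritic cells, which can carry CCR9, was at 3.59 and 10.3 RPKM in nB replicates 1-2 and 3, in the order of *Ccr9*, and at no more than 0.0547 RPKM in any cultured library. The part of such cells in the nB level of *Ccr9* was not tested. The difference between Pb and actB with DMSO was 0.60 (SE 0.27, adjusted p = 0.0659) and did not pass, but passed with the replicate block (adjusted p = 0.00186) and in 8 of the 12 alternatives other than leaving out 1 library (0.00186 to 0.147). It also passed without Pb DMSO replicate 2 (0.0440) or Pb GSK343 replicate 2 (0.0380). The deposited length of *Ccr9*, 9815 bases, exceeds the 3217 exon bases of the annotation used here, 8.36% of which a noncoding gene shares. A larger length lowers RPKM, so the level of *Ccr9* beside other genes depends on the length taken. *Lztfl1*, whose span overlaps *Ccr9* on the other strand, rose in Pb with GSK343 (log2 fold change 0.37, adjusted p = 0.0214) and was not called in actB (0.25, adjusted p = 0.108). Its part in the *Ccr9* values was not tested.

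*Cxcr4* (Entrez 12767, chromosome 1 from 130484776 to 130488870, minus strand), the receptor for CXCL12, had the highest level of the 9 in nB and in Pb. It was at 342 and 246 RPKM in nB. In actB it was at 28.7, 29.8, and 23.2 RPKM with DMSO and 33.8, 33.9, and 32.8 RPKM with GSK343. In Pb it was at 90.9, 91.0, and 94.2 RPKM with DMSO and 120.2, 112.7, and 113.3 RPKM with GSK343. No groups overlapped: nB was highest, followed by Pb with GSK343, Pb with DMSO, actB with GSK343, and actB with DMSO.

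*Cxcr4* was 10.8 times lower in actB with DMSO than in nB (log2 fold change -3.41, SE 0.12, adjusted p = 7.89e-11 from limma) and 3.38 times higher in Pb than in actB (log2 fold change 1.76, SE 0.11, adjusted p = 2e-08). It made up between 50.5% and 55.4% of the summed level of the 9 members in Pb with DMSO, against 8.82% to 11.7% in actB with DMSO. With GSK343, its log2 fold change was 0.31 (SE 0.11) in actB and 0.33 (SE 0.11) in Pb. Neither passed (adjusted p = 0.0944 and 0.0690). Both passed with the replicate block (adjusted p = 0.0362 and 0.0247), in a range of 0.0362 to 0.157 in actB and 0.00987 to 0.135 in Pb over the alternatives other than leaving out 1 library. Without nB replicates 1-2 or nB replicate 3 both passed as well (adjusted p = 0.0337 in actB and 0.0217 and 0.0216 in Pb), and without actB DMSO replicate 3 the value in Pb passed (0.0419).

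*Cxcr3* (Entrez 12766, chromosome X from 98926874 to 98929608, minus strand) encodes the receptor for the interferon-induced chemokines CXCL9 and CXCL10. It was at 1.86 and 2.77 RPKM in nB. In actB replicates 1 to 3 it was at 10.7, 31.0, and 17.0 RPKM with DMSO and 15.7, 25.9, and 21.0 RPKM with GSK343, and in Pb at 1.85, 3.47, and 1.35 RPKM and at 1.61, 5.60, and 1.92 RPKM. All actB libraries lay above all nB and Pb libraries, and nB and both Pb groups overlapped. Replicate 2 was highest in each of the 4 cultured groups.

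From nB to actB with DMSO, *Cxcr3* rose by 2.84 on the log2 scale (SE 0.52, adjusted p = 0.000288 from limma), and from actB to Pb it fell by 2.96 (SE 0.47, adjusted p = 0.000104). It was the only member of the 9 that was called higher at the first step and lower at the second. The effect of GSK343 was 0.20 (SE 0.47, adjusted p = 0.855) in actB and 0.31 (SE 0.47, adjusted p = 0.742) in Pb, each smaller than its error.

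*Ccr7* (Entrez 12775, chromosome 11 from 99005510 to 99016391, minus strand), the receptor for CCL19 and CCL21, declined at each stage. It was at 223 and 174 RPKM in nB. In actB it was at 35.1, 52.5, and 35.0 RPKM with DMSO and 29.9, 46.5, and 30.04 RPKM with GSK343, and in Pb at 5.36, 7.36, and 4.65 RPKM and at 2.60, 7.52, and 3.31 RPKM. The stages did not overlap, and the treatments overlapped within each stage. Its log2 fold change was -2.29 (SE 0.37, adjusted p = 8.83e-05 from limma) from nB to actB and -2.77 (SE 0.33, adjusted p = 8.27e-06) from actB to Pb with DMSO.

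The effect of GSK343 on *Ccr7* was -0.21 (SE 0.33, adjusted p = 0.767) in actB and -0.47 (SE 0.33, adjusted p = 0.404) in Pb. In Pb the ratio was 0.484, 1.02, and 0.712 in replicate numbers 1 to 3. The value in Pb passed with the replicate block (adjusted p = 0.0366), without Pb GSK343 replicate 2 (log2 fold change -0.90, adjusted p = 0.0408), and with replicate 2 left out of all cultured groups (-0.72, adjusted p = 0.00587). Over all alternatives of that kind the adjusted p ran from 0.00587 to 0.560, and over the fits without 1 library it ran from 0.0408 to 0.828.

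*Cxcr5* (Entrez 12145, chromosome 9 from 44319871 to 44334504, minus strand), the follicular receptor for CXCL13, was at 176 and 157 RPKM in nB. In actB it was at 108.3, 131.6, and 115.01 RPKM with DMSO and 81.2, 97.8, and 84.5 RPKM with GSK343. In Pb it was at 47.6, 55.8, and 45.3 RPKM with DMSO and 30.7, 43.7, and 36.7 RPKM with GSK343. The groups stood in this order without overlap, each lower than the one before it.

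*Cxcr5* was 1.41 times lower in actB with DMSO than in nB (log2 fold change -0.50, SE 0.14, adjusted p = 0.00621 from limma), a call that was lost without nB replicates 1-2 (adjusted p = 0.0663). From actB to Pb it was 2.39 times lower (log2 fold change -1.25, SE 0.13, adjusted p = 1.92e-06). With GSK343 the level was 1.35 times lower in actB and 1.34 times lower in Pb, a log2 fold change of -0.43 (SE 0.13) in each. The adjusted p was 0.0506 in actB, which did not pass, and 0.0437 in Pb. With the replicate block both passed (adjusted p = 0.000794 and 0.000522), and the ratio within replicate numbers 1 to 3 was 0.750, 0.744, and 0.735 in actB and 0.644, 0.783, and 0.810 in Pb.

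Both values of *Cxcr5* lay near the threshold, with an adjusted p of 0.000794 to 0.0869 in actB and 0.000522 to 0.103 in Pb over the alternatives other than leaving out 1 library. The call in Pb was lost without any 1 of 9 libraries: nB replicates 1-2 or 3, actB DMSO replicate 3, actB GSK343 replicate 3, Pb DMSO replicates 1, 2, or 3, and Pb GSK343 replicates 1 or 3 (adjusted p of 0.0583 to 0.171). That in actB was gained without actB GSK343 replicate 2 (0.0381), Pb DMSO replicate 2 (0.0461), Pb GSK343 replicate 1 (0.0309), or Pb GSK343 replicate 2 (0.0302). In Pb, the 6 B cell markers summed to 922 to 942 RPKM with DMSO and 753 to 894 with GSK343, and 2 of them moved with *Cxcr5*: *Pax5* had a log2 fold change of -1.11 (adjusted p = 0.0022) and *Ms4a1* of -0.63 (adjusted p = 0.00369), and *Sdc1*, the gene of the CD138 antigen of the sort, rose by 0.89 (adjusted p = 0.000575). Of the 6 plasmablast markers it was the 1 called higher, and *Irf4* was called lower. The part of a shift among sorted cells in the receptor levels was not tested.

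*Ccr6* (Entrez 12458, chromosome 17 from 8429077 to 8449992, plus strand), the receptor for CCL20, was not called between nB and actB and fell in Pb. It was at 60.8 and 66.6 RPKM in nB. In actB it was at 43.8, 65.5, and 54.1 RPKM with DMSO and 69.8, 83.1, and 75.2 RPKM with GSK343, and in Pb at 12.6, 10.1, and 10.7 RPKM and at 10.7, 13.3, and 11.5 RPKM. The actB libraries with GSK343 lay above all others, nB and actB with DMSO overlapped, and so did both Pb groups. The difference between actB with DMSO and nB was -0.24 (SE 0.15, adjusted p = 0.155 from limma), and passed without actB DMSO replicate 2 (-0.39, adjusted p = 0.0203) and with quantile normalization (0.0481), in a range of 0.00827 to 0.218 over the alternatives other than leaving out 1 library. From actB to Pb *Ccr6* was 4.89 times lower (log2 fold change -2.25, SE 0.13, adjusted p = 1.52e-08).

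With GSK343, *Ccr6* was 1.40 times higher in actB (log2 fold change 0.49, SE 0.13, adjusted p = 0.0360), and its log2 fold change in Pb was 0.085 (SE 0.13, adjusted p = 0.754). The call in actB was lost without any 1 of 8 libraries: nB replicates 1-2 or 3, actB DMSO replicates 1 or 3, actB GSK343 replicates 1, 2, or 3, and Pb GSK343 replicate 3 (adjusted p of 0.0524 to 0.128). It was also lost with no filter, quantile normalization, median scaling, and the compared groups alone (0.0522 to 0.142), and held with the replicate block (0.0160).

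*S1pr1* (Entrez 13609, chromosome 3 from 115413351 to 115417973, minus strand), the S1P receptor for exit from lymphoid organs, had the lowest log2 fold change of the 9 from nB to actB with DMSO. It was at 146 and 127 RPKM in nB. In actB it was at 4.07, 3.63, and 4.18 RPKM with DMSO and 6.14, 5.25, and 6.60 RPKM with GSK343, and in Pb at 4.53, 4.07, and 4.68 RPKM and at 5.21, 4.11, and 5.18 RPKM. Every cultured library held at most 6.60 RPKM. The difference from nB to actB with DMSO was 34.5 times (log2 fold change -5.02, SE 0.12, adjusted p = 4.22e-12 from limma). With GSK343 *S1pr1* was 1.51 times higher in actB (log2 fold change 0.57, SE 0.11, adjusted p = 0.00689), which held in all 27 alternatives. In Pb, the log2 fold change was 0.11 (SE 0.11, adjusted p = 0.558), and the libraries overlapped. From actB to Pb with DMSO the difference of 0.15 (adjusted p = 0.228) did not pass, but did with median scaling (0.26, adjusted p = 0.0440) and with edgeR and RLE factors (0.28, adjusted p = 0.0383), in a range up to 0.313.

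*Gpr183* (Entrez 321019, chromosome 14 from 122351553 to 122364415, minus strand), the oxysterol receptor, was at 73.5 and 64.3 RPKM in nB. In actB it was at 12.8, 15.1, and 14.01 RPKM with DMSO and 13.6, 16.9, and 15.1 RPKM with GSK343, and in Pb at 4.81, 5.62, and 5.55 RPKM and at 4.81, 6.10, and 5.76 RPKM. The stages did not overlap, and the treatments overlapped within each. It was 4.94 times lower in actB than in nB (log2 fold change -2.28, SE 0.12, adjusted p = 2.77e-09 from limma) and 2.62 times lower in Pb than in actB (log2 fold change -1.35, SE 0.11, adjusted p = 2.05e-07). With GSK343, its log2 fold change was 0.12 in actB and 0.055 in Pb (SE 0.11, adjusted p = 0.556 and 0.810). *Gpr183* lies within the span of *Ubac2* on the other strand and shares 0 exon bases with it.

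**Figure D4:**
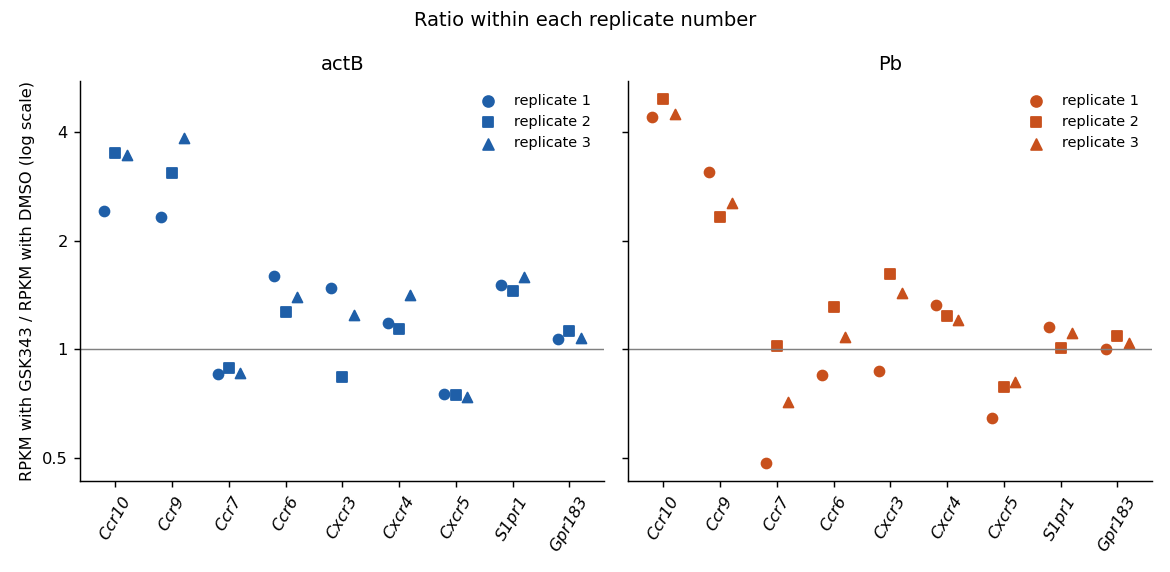
Ratio of RPKM with GSK343 to RPKM with DMSO (log scale) within replicate numbers 1 to 3 for each receptor gene, in actB on the left and Pb on the right. All 6 ratios of *Ccr10* and of *Ccr9* exceed 2, all 6 of *Cxcr5* lie below 1, and those of *Ccr7* in Pb run from 0.484 to 1.02.

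Among the other chemokine receptors, 11 of 18 listed genes were tested. With GSK343, limma called 0 of them in either cell type. Of all genes tested it called 8.2% higher and 2.16% lower in actB, and 7.9% and 5% in Pb. At such shares few of 11 genes would be called. At an unadjusted p under 0.05 there was 1 of the 11 in each cell type. By edgeR 1 passed in actB and 0 in Pb (10.2% and 12.6% of all genes), and by the replicate block 3 and 1 (19.9% and 23.2%). The median log2 fold change of these genes was 0.26 in actB and -0.029 in Pb, beside 0.028 and 0.0031 over all genes. From nB to actB with DMSO, 6 of the 11 were called lower and 1 higher, and from actB to Pb 2 were called lower and 3 higher. Over all genes, 36.3% were called lower and 40.9% higher at the first step, and 42.4% and 27.3% at the second. *Ccr2* and *Cx3cr1*, receptors of monocytes, had 7.08 ± 1.18 and 3.11 ± 0.032 RPKM in nB (SD, n = 2) and at most 0.169 RPKM on average in any cultured group. *Ackr2*, a scavenger of inflammatory chemokines, had 7.21 ± 0.441 RPKM in actB and 0.569 ± 0.263 in Pb with DMSO (log2 fold change -3.24, adjusted p = 1.09e-08), and *Ackr3*, a scavenger of CXCL12, had 1.88 ± 0.25 and 5.85 ± 0.941 RPKM (log2 fold change 1.52, adjusted p = 0.000322).

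Of the other lipid and orphan receptors, 16 of 24 were tested. In Pb with GSK343, 5 were called lower and 2 higher, and in actB 1 was called in each direction, or 2 in each with the replicate block. The shares over all genes were 5% lower and 7.9% higher in Pb, and 2.16% and 8.2% in actB. With the block, 19.9% were called in actB in either direction. *Gpr55*, a lysolipid receptor, had 48.9 ± 6.43 RPKM in Pb with DMSO and 67.1 ± 2.63 with GSK343, and 6.99 ± 0.409 and 12.9 ± 1.5 RPKM in actB (log2 fold change 0.86, adjusted p = 0.000491), beside 0.991 ± 0.101 in nB. *P2ry10*, another lysolipid receptor, was lower with the drug in both, from 31.0 ± 0.832 to 24.2 ± 3.19 RPKM in actB (adjusted p = 0.0203) and in Pb from 19.04 ± 0.626 to 11.5 ± 0.948 RPKM (adjusted p = 0.000378). *Cnr2*, the cannabinoid receptor of B cells, fell in Pb from 2.86 ± 0.191 to 1.45 ± 0.108 RPKM (log2 fold change -0.87, adjusted p = 0.00568).

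From nB to actB with DMSO, 11 of these 16 lipid and orphan receptors were called lower and 1 higher, beside 36.3% and 40.9% of all genes. Their median was -0.91, beside 0.053 over all genes. From actB to Pb, 11 were called lower and 4 higher, beside 42.4% and 27.3% of all genes. At this step *Gpr55* rose by 2.76 on the log2 scale (adjusted p = 2.58e-10). *Gpr34*, a lysophosphatidylserine receptor, fell from 6.21 ± 2.50 to 0.328 ± 0.132 RPKM (log2 fold change -3.44, adjusted p = 4.96e-06). *S1pr3*, another S1P receptor, had 9.37 ± 3.04 RPKM in nB and 0.755 ± 0.133 in actB, and *Ptafr*, the receptor for platelet-activating factor, 3.09 ± 0.189 and 0.0760 ± 0.053 RPKM.

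All 24 genes of receptor signalling and its regulators were tested. With GSK343, 7 were called higher in actB and none lower, and in Pb 4 were called higher and 2 lower, or 7 and 3 with the replicate block. Over all genes, 8.2% were called higher and 2.16% lower in actB, and 7.9% and 5% in Pb. With the block, 23.2% of all genes were called in Pb in either direction. In actB, *Rgs3*, which shortens G protein signals, had 0.776 ± 0.149 RPKM with DMSO and 1.5 ± 0.080 with GSK343 (log2 fold change 0.78, adjusted p = 0.0015), and *Arrb1*, an arrestin that uncouples receptors, had 2.53 ± 0.683 and 4.20 ± 0.753 RPKM (log2 fold change 0.70, adjusted p = 0.0220). In Pb, *Rgs1* had 0.450 ± 0.068 and 1.03 ± 0.182 RPKM (log2 fold change 0.86, adjusted p = 0.00726), and *Rgs13* had 0.549 ± 0.252 and 0.149 ± 0.061 RPKM (log2 fold change -0.96, adjusted p = 0.0307).

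Between the stages, 20 of the 24 were called lower and 1 higher from nB to actB with DMSO, with a median of -1.08, and 19 were called lower and 1 higher from actB to Pb. The shares over all genes were 36.3% lower and 40.9% higher at the first step, and 42.4% and 27.3% at the second. *Rgs1* and *Rgs2*, regulators of G protein signals, had 62.6 ± 8.30 and 112.5 ± 1.32 RPKM in nB and 0.683 ± 0.070 and 3.60 ± 0.099 in actB. *Klf2*, a factor known to drive *S1pr1*, had 274 ± 1.33 RPKM in nB, 33.2 ± 4.65 in actB with DMSO, and 3.33 ± 0.945 in Pb with DMSO (log2 fold change from actB to Pb -3.25, adjusted p = 7.43e-09), a step at which *S1pr1* was not called. *Rgs10*, another regulator of G protein signals, by contrast had 8.41 ± 0.668 RPKM in actB and 47.8 ± 0.746 in Pb with DMSO.

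For the enzymes and transporters that make, export, or destroy oxysterols and S1P, 9 of 12 were tested. With GSK343, 2 were called higher and 1 lower in actB (8.2% and 2.16% of all genes), and 1 was called higher in Pb (7.9% of all genes). *Sgpl1*, the S1P lyase, had 13.2 ± 0.926 RPKM with DMSO and 16.9 ± 0.755 with GSK343 in actB (log2 fold change 0.35, adjusted p = 0.00964) and 15.7 ± 0.379 and 20.03 ± 1.92 RPKM in Pb (log2 fold change 0.35, adjusted p = 0.00901). *Spns2*, an S1P exporter, had 10.6 ± 1.61 RPKM in nB, 0.433 ± 0.046 in actB with DMSO, and 0.767 ± 0.126 in actB with GSK343 (log2 fold change with the drug 0.57, adjusted p = 0.0171). From nB to actB with DMSO 6 were called lower and 1 higher (36.3% and 40.9% of all genes), and from actB to Pb 6 were called lower and 3 higher (42.4% and 27.3%). *Ppap2b*, a lipid phosphatase gene, had 6.51 ± 0.098 RPKM in nB and 0.198 ± 0.073 in actB, *Ppap2a*, another of that family, had 23.3 ± 0.807 in actB and 9.25 ± 2.05 in Pb, and *Mfsd2b*, an S1P exporter, had 0.592 ± 0.084 and 1.56 ± 0.221 RPKM. Among the calls with GSK343 named for these lists, that of *Rgs13* was lost in 9 of 26 alternatives, those of *Arrb1* and of *Spns2* in 5 of 27 each, and that of *P2ry10* in actB in 3 of 27.

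**Figure D5:**
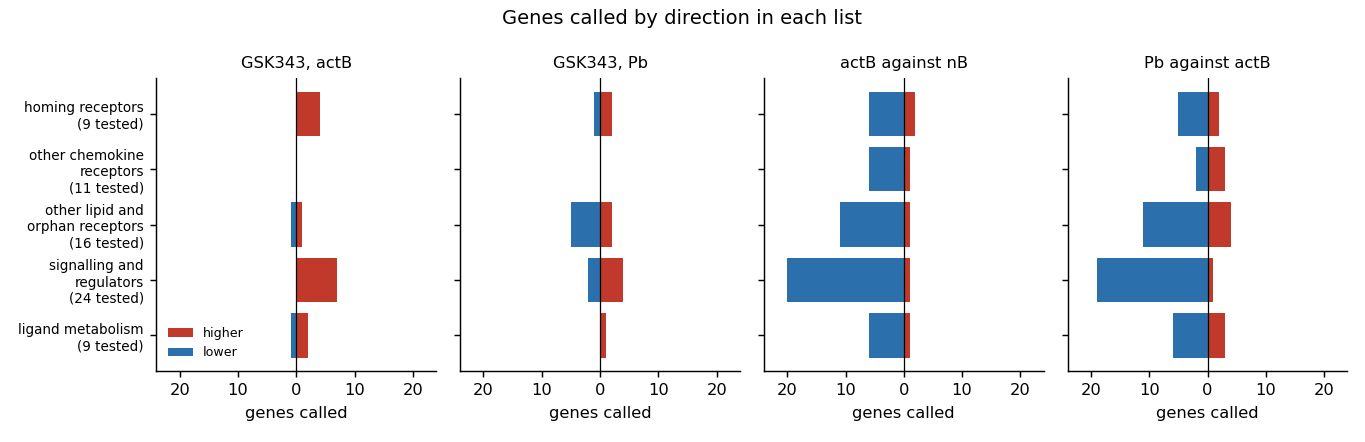
Number of genes called higher (red, to the right) and lower (blue, to the left) among the 9 homing receptors and the 4 lists of related genes in 4 comparisons, by limma at an adjusted p under 0.05. Of the 24 signalling genes 20 were called lower in actB than in nB, beside 36.3% of all genes, and 0 of the 11 other chemokine receptors were called with GSK343 in either cell type. With GSK343, 8.2% of all genes were called higher and 2.16% lower in actB, and 7.9% and 5% in Pb.

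The genes whose pattern was most like that of each member were found by Pearson's r of log2(RPKM + 0.25) over the 14 libraries, which share their 5 groups, so that r mostly reflects group means and is given as a description. For *Ccr10* they were *Slc1a1* (r = 0.992), a glutamate transporter, *Ankrd28* (0.987), and *Sdhc* (0.987), a subunit of succinate dehydrogenase. *Slc1a1* had mean levels of 0.00698, 0.339, 0.778, 1.90, and 5.24 RPKM in nB, actB with DMSO, actB with GSK343, Pb with DMSO, and Pb with GSK343. For *Ccr9* they were *Slc16a10* (0.95), *Ccl3* (0.925), a chemokine gene, and *Lrba* (0.921). *Ccl3* had 3.46 RPKM on average in Pb with DMSO and 25.4 with GSK343.

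*Cxcr4* was most like *Dusp1* (r = 0.993), a MAP kinase phosphatase gene, *Adgre5* (0.991), and *Cst3* (0.990), and *Cxcr3* most like *Zfp281* (0.969), *Gatm* (0.968), and *Ikbke* (0.967). For *Ccr7* the genes were *Gpsm3* (0.996), *Gapt* (0.995), and *Epsti1* (0.995), for *Cxcr5* *Mndal* (0.990), *Cep68* (0.990), and *Fcer2a* (0.989), the gene of CD23, and for *Ccr6* *Hif1a* (0.993), *Stat5a* (0.992), and *Abca3* (0.992). *S1pr1* was most like *Epc1* (0.995), *Apoe* (0.995), and *Itgax* (0.994), a marker of dendritic cells that had 22.9 RPKM on average in nB and at most 0.192 in the cultured groups, and *Gpr183* was most like *Il9r*, *H2-Eb2*, and *Cd79b* (each 0.995).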

How the data were processed

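RNA-seq of poly(A) RNA was analysed for 15 libraries in 5 groups. The authors mapped the reads to mm9 with TopHat2 and counted reads over the exons of Entrez genes with GenomicRanges. The deposited values are RPM (reads per 1000000 counted reads), although their table is named for RPKM, and each library summed to this number. Within 0.1 read, 100% of values were whole multiples of 1 read, from which reads were recovered. Dividing by the deposited length in kilobases gave RPKM. A count of 0 allows 3 reads, or 0.114 to 0.154 RPM, and intervals and floors cover counting error only. The 92 genes without a symbol hold at most 0.0905% of reads and were left out.

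nB replicates 1 and 2 differed by less than the sampling noise (chi-square per degree of freedom 0.00958, against at least 3.58 for other pairs) and were merged. In R 4.3.3, limma 3.58.1 was fitted to log2(RPKM + 0.25) of the 14 libraries with eBayes and a trend, on 9 residual degrees of freedom. The scripts were tested on simulated data. The paper reports 3 biological replicates per cell type. Nothing in the labels states that libraries of a group came from separate mice, and p-values measure only the spread between them.

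The replicate numbers were not in the model. The sample titles share them across groups. The deviations of libraries from their group correlated at 0.158 to 0.713 between cultured groups for the same number and at -0.603 to 0.370 over 36 pairs of different numbers. Deviations within a group sum to 0, which by itself lowers the values for different numbers. By number, the range was 0.158 to 0.502 for 1, 0.435 to 0.713 for 2, and 0.219 to 0.356 for 3. Only that of number 2 lay wholly above the pairs of different numbers. A pair of numbers 1 and 3 reached 0.370, so these values do not show pairing for numbers 1 and 3. Alternatives were a replicate block, pseudocounts of 1 and 0.05, no filter (18731 genes), at least 3 RPKM (9887 genes), quantile normalization, median scaling, the compared groups alone, all 15 columns, edgeR 4.0.16 on recovered reads with TMM or RLE factors, and each library left out. Added after the data were seen were replicate 2 left out of all cultured groups and edgeR on 11146 genes with at least 3 RPM in 3 columns.

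The members and lists were chosen with earlier results of these data known. Named genes are all members, the 2 called genes with the largest change per related list and comparison, and the 3 genes most like each member. Positions are from GENCODE vM1 on mm9, 1-based. List names that differ in the table were matched through RefSeq synonyms.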

Additional observations from a re-analysis of the deposited data

Results flagged for a closer look

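In the main limma fit, the effect of GSK343 on *Ccr10* was called as differing between the cell types, a call that did not hold under most alternatives. The log2 difference of the effect, Pb minus actB, was 0.9555 (standard error 0.17, limma, adjusted p = 0.0427). The ratio with GSK343 was 2.41 to 3.50 over the 3 replicate numbers in actB and 4.41 to 4.93 in Pb. The call was kept with a pseudocount of 1. It was lost with one of 0.05, where the log2 difference was 0.69, and with edgeR on whole reads, where it was 0.63. It was also lost with no filter on low values (adjusted p = 0.0776), with quantile normalization (0.0603), with the compared groups alone (0.0609), and without any 1 of 12 of the 14 libraries. The labels name Il6 in place of Il5 for the Pb libraries with GSK343, while the paper names IL5 for all of these cultures. If the labels hold, the cytokine cannot be told apart from the drug. No group was large enough for a formal search for single libraries far from the others. In every cultured group, however, replicate 2 lay further from replicates 1 and 3 than these lay from each other. The chi-square per degree of freedom was 26.7 and 23.4 against 3.80 in actB with DMSO, and 29.7 and 16.7 against 6.07 with GSK343. In Pb it was 9.73 and 11.1 against 3.58 with DMSO, and 11.4 and 7.64 against 3.68 with GSK343.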

How the results depend on the processing

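The number of members called with GSK343 in actB, 4, was 2 with quantile normalization and with the compared groups alone, and 2 to 5 with 1 library left out. In Pb it was 3, and 5 with the replicate block, and 1 to 4 with 1 library left out. The blocked fit changed the calls of *Cxcr4* and *Cxcr5* in actB, of *Ccr7* and *Cxcr4* in Pb, and of *Ccr9* between Pb and actB, and no other call of a member. For the difference of the drug's effects, 1 member was called, and 0 with a pseudocount of 0.05, no filter on low values, quantile normalization, the compared groups alone, or edgeR with TMM, RLE, or the filter at 3 RPM, and 0 to 1 with 1 library left out. Counts between stages stayed within 1.5 times.

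Of 1452 values of single members under an alternative, 1313 kept their direction and side of the threshold, 61 lost and 38 gained a call, and 40 changed direction. None of the last was called. *Ccr6* in Pb was -0.064 without replicate 2 of all cultured groups. The log2 difference between Pb and actB of *Ccr9* was -0.12 with a pseudocount of 0.05, -0.14 and -0.13 with edgeR and TMM or RLE, and -0.14 with edgeR at 3 RPM. That of *Cxcr3* was -0.30 and that of *Cxcr4* -0.031 without replicate 2, and that of *Cxcr4* -0.018 with quantile normalization. That of *Cxcr5* was 0.0042 with a pseudocount of 1, 0.026 with quantile normalization, 0.028 with median scaling, and 0.030, 0.035, and 0.030 with edgeR and TMM, RLE, and the filter at 3 RPM.

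With 1 library left out, *Cxcr3* ran from -0.16 to 0.60 in actB, -0.21 to 0.65 in Pb, and -0.46 to 0.15 for Pb against nB, and *Gpr183* in Pb from -0.014 to 0.15. The log2 difference between Pb and actB ran from -0.16 to 0.30 for *Ccr9*, -0.69 to 0.034 for *Ccr7*, -0.41 to 0.47 for *Cxcr3*, -0.048 to 0.13 for *Cxcr4*, -0.13 to 0.13 for *Cxcr5*, and -0.14 to 0.031 for *Gpr183*. *Ccr9* was not tested with at least 3 RPKM. By the SE from limma, the differences of *Cxcr3* (0.47 with GSK343 in each cell type) and *Ccr7* (0.33) were the least precise of the 9. Those of *Ccr9* had an SE of 0.27. For *Ccr10*, the ratios against nB rest on 1 read in nB and have wide counting intervals. Apart from the weight of the pseudocount at low levels, the cause of the changes under the alternatives was not tested.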
